A study of Homo sapiens with 6 samples.

Results

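The major histocompatibility complex (MHC) is the stretch of chromosome 6 that carries the HLA genes, and SMAD2 binding was described here over the interval from 29.5 to 33.4 Mb of the human genome build hg19. Members were all summits of 4 deposited peak lists inside this interval, a summit being the 1-base position of highest signal in a peak. The interval was divided at fixed positions into class I (29.5 to 31.5 Mb), class III (31.5 to 32.3 Mb) and class II (32.3 to 33.4 Mb). It held 617 of the 79310 summits, and after summits of any list within 250 bp of the next had been joined it held 280 of 36648 binding sites. Of these sites, 109 lay in class I, 104 in class III and 67 in class II, and no site crossed a limit. The interval limits used no measured value. The last summit before the interval lay 515428 bp ahead of its start and the first inside it 66366 bp after. At the other end these distances were 3765 bp inside and 22125 bp outside.

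The data came from chromatin immunoprecipitation and sequencing (ChIP-seq) with an antibody against SMAD2 in Hs578T, an established cell line of triple-negative breast cancer. All cells had received activin A, a TGF-β family ligand, at 50 ng/ml for 1.5 h. In the activin group (2 libraries) this was the only treatment, and in the palbociclib group (2 libraries) palbociclib, an inhibitor of CDK4 and CDK6, was added at 1 µM for 24 h. All groups share 1 cell line and the activin treatment, no ChIP library without activin was analysed here, and the labels do not tie replicates to separate cultures, so p-values measure only the spread between these libraries, which could be technical.

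In the MHC, class I genes encode the receptors that show peptides of the cell's own proteins to cytotoxic T cells. Class II genes such as HLA-DRA and HLA-DRB1 encode those that show peptides to helper T cells and are used mainly by professional antigen-presenting cells. Class III lies between them and holds unrelated genes packed closely together, among them complement components, the tumour necrosis factor family and HSP70 heat shock proteins. SMAD2 is phosphorylated by activated activin and TGF-β receptors, joins SMAD4 and acts on genes from the nucleus. In the gene order of RefSeq (GRCh38.p14), 60 protein-coding genes lie between MICB and BTNL2, the usual class III block. From HLA-F to MICB there are 49, and from BTNL2 to HLA-DPB1 there are 19. These blocks are bounded by genes, and the classes used here by fixed positions. The gene counts and the summit counts of a class therefore need not cover the same stretch. An hg19 gene annotation was not used here, so sites are given by position and not by gene.

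The lists differed in length: activin replicates 1 and 2 held 25553 and 7241 summits, and palbociclib replicates 1 and 2 held 27290 and 19226. Read depth is unknown, and activin replicate 2 stands apart by its short list, so group differences and counts of ranked or group-specific sites are also given without it. For single sites the value of each library is given instead. The authors' peak calling used 1 input per treatment, so treatment and input cannot be told apart.

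The MHC was dense in SMAD2 summits in every library. Activin replicates 1 and 2 had 197 and 77 summits there, and palbociclib replicates 1 and 2 had 195 and 148. In the order activin 1, activin 2, palbociclib 1 and palbociclib 2, this was 50.5, 19.7, 50.0 and 37.9 summits per Mb. The mean densities of the whole lists, over the span that summits cover on each chromosome, were 8.72, 2.47, 9.31 and 6.56 per Mb. The MHC thus exceeded the mean of its own list by 5.79, 7.99, 5.37 and 5.78 times. Among 766 other stretches of the same length tiled along the genome, 8, 2, 14 and 5 held at least as many summits in these libraries, which is 1.04%, 0.261%, 1.83% and 0.653%. The stretch of equal length just before the MHC on chromosome 6 held 136, 57, 146 and 103 summits, and the one just after it held 90, 28, 90 and 63. In each of the 4 libraries the MHC held more than either neighbour.

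As a share of the list, the MHC held 0.771% of the summits in activin replicate 1 (Wilson 95% interval 0.671 to 0.886) and 1.06% in activin replicate 2 (0.852 to 1.33). It held 0.715% in palbociclib replicate 1 (0.621 to 0.822) and 0.770% in palbociclib replicate 2 (0.656 to 0.904). These intervals cover counting error only. The groups did not overlap, though activin replicate 1 and palbociclib replicate 2 were nearly equal. The group means were 0.917% ± 0.207 with activin and 0.742% ± 0.0391 with palbociclib (SD, n = 2 each), a difference of -0.175 percentage points. The exact permutation test gave p = 0.33 (two-sided), which is the smallest p that 2 against 2 libraries allow. Without activin replicate 2 the difference was -0.0288, so that library set its size.

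Class III was the densest class in all 4 libraries, and the order of class I and class II varied. Class III had 93.8, 35.0, 88.8 and 70 summits per Mb in activin replicates 1 and 2 and palbociclib replicates 1 and 2. Class I had 37.5, 14.5, 41.5 and 30.5, and class II had 42.7, 18.2, 37.3 and 28.2. Relative to the mean of the list, class III was 9.53 to 14.2 times as dense, class I 4.30 to 5.87 times and class II 4.0 to 7.36 times. On the log2 scale class III exceeded class I by 1.22 on average, in 4 of 4 libraries (exact sign-flip permutation test, two-sided, p = 0.13, the smallest that 4 libraries allow). Class II and class I differed by 0.06 on that scale (p = 0.62 by the same exact permutation test). With lists of equal length this difference was 0.29, class II being denser in 4 of 4 libraries (exact permutation test, p = 0.13), and without activin replicate 2 it was -0.0269. Among 3783 other stretches as long as class III, 12, 2, 21 and 10 held at least as many summits as class III in the respective libraries.

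**Figure D1:**
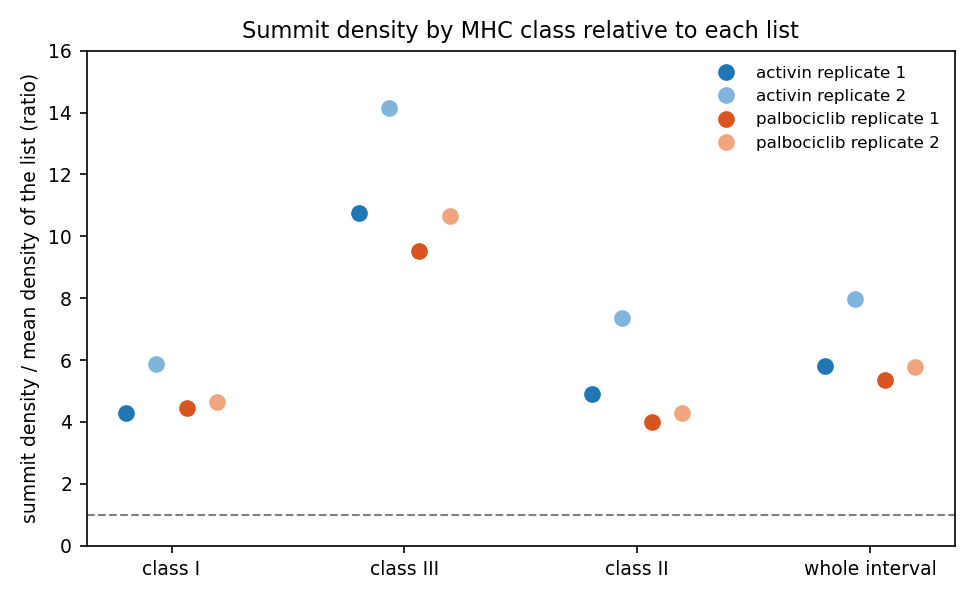
Summit density in each MHC class and in the whole interval, divided by the mean density of the same list (vertical axis, ratio). Each point is 1 library, the dashed line marks the mean of the list, and class III lies highest in all 4 libraries, between 9.53 and 14.2.

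The 3 classes divided the MHC summits as follows in the 2 treatments. Class I took 38.1% and 37.7% in activin replicates 1 and 2 against 42.6% and 41.2% in palbociclib replicates 1 and 2, a difference of 4.02 percentage points without overlap (exact permutation test, p = 0.33). Without activin replicate 2 it was 3.82, and at a score of at least 5 it was 2.02 and the groups overlapped, with 42.8% and 34.4% against 41.1% and 40.2% (exact permutation test, p = 1). Class II took 23.9% and 26.0% against 21.0% and 20.9%, a difference of -3.93 points, also without overlap (exact permutation test, p = 0.33). The class II difference was -2.87 without activin replicate 2 and shrank to -0.20 points when all lists were reduced to the length of the shortest. Class III took 38.1% and 36.4% against 36.4% and 37.8%, and there the groups overlapped, with a difference of -0.0933 points and of -0.947 without activin replicate 2. With lists of equal length the class III difference was -4.38 points without overlap, from 34.4% and 36.4% against 29.8% and 32.2% (exact permutation test, p = 0.33). At a score of at least 5 it had the opposite sign, 2.75 points, also without overlap, so its direction rests on the list length and the score limit. In the smallest library each of these shares rests on 77 summits, and its Wilson interval for class I runs from 27.7% to 48.8%, wider than the differences between the groups.

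The density was uneven inside the classes, as the count along the interval shows. In class I, the 0.2 Mb from 30.5 to 30.7 Mb held 27, 17, 28 and 24 summits in activin replicates 1 and 2 and palbociclib replicates 1 and 2. The 1 Mb before it held 28, 6, 31 and 19, and the 0.8 Mb after it held 20, 6, 24 and 18. In class III, the 100 kb from 31.8 to 31.9 Mb held 19, 6, 16 and 13 summits, and the last 100 kb of the class held none in any library. In class II, the 0.5 Mb from 32.3 to 32.8 Mb held none, the 0.3 Mb to 33.1 Mb held 10, 8, 9 and 8, and the final 0.3 Mb held 37, 12, 32 and 23. The class II density was therefore set mostly by its last 0.3 Mb, at 123, 40.0, 107 and 76.7 summits per Mb. With the interval ended at 33.1 Mb and started at 29.6 Mb, the log2 ratio of class II to class I density was -1.45 on average (4 libraries, exact permutation test, p = 0.13), so the order of these classes rests on where the interval ends.

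**Figure D2:**
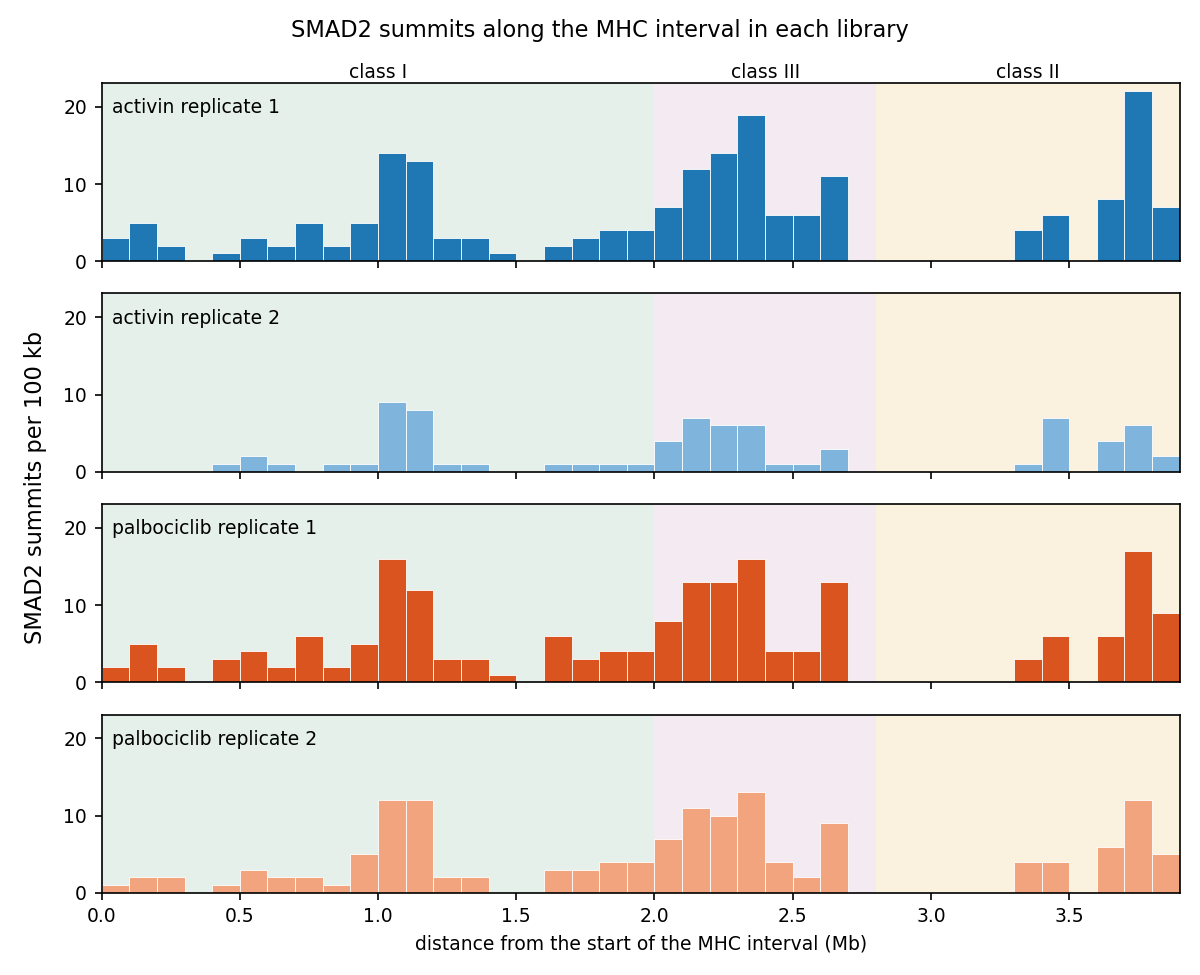
Number of SMAD2 summits per 100 kb (vertical axis) against the distance from the start of the MHC interval in Mb (horizontal axis), with 1 panel per library and the classes shaded. All 4 panels show a class I peak from 1 to 1.2 Mb, a broad class III rise, and no summit from 2.7 to 3.3 Mb.

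The longest stretch without a summit ran from 32163898 to 32806004 on chromosome 6 (hg19), a length of 642 kb. It spans the end of class III and the first part of class II, and it was found by its lack of summits. In a stretch chosen beforehand, a count of 0 would allow up to 3 summits per library, or 4.67 per Mb. The list means were 8.72, 2.47, 9.31 and 6.56 per Mb, in the library order used above. Because this stretch was picked for being empty, that limit does not apply to it. Whether its density lies below the mean of any list was therefore not tested. At the 2.47 of activin replicate 2, even an empty stretch chosen beforehand could not be told from an average one at this length. Of the 36624 gaps between neighbouring sites of the genome, 950 were at least as long, or 2.59%. Within the MHC the next longest gaps were 200621 bp between sites at 30923550 and 31124172 in class I, 189424 bp between 29720809 and 29910234 in class I, and 178152 bp between 32951312 and 33129465 in class II. Activin replicate 2 had no MHC summit before the site at 29910234, and its gap there was 1018436 bp.

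By rank of the authors' score within each list, MHC summits stood near the middle. The percentile runs here from 0 for the strongest to 100 for the weakest summit of a list, so a list as a whole has its median near 50. The median MHC summit had a percentile of 49.1 and 57.4 in the activin replicates, against 44.5 and 47.7 for the palbociclib replicates. Of the MHC summits, 8.63%, 6.49%, 8.72% and 10.1% were among the best 10% of their list. The group means were 53.2 ± 5.85 and 46.1 ± 2.28 (SD, n = 2 each; exact permutation test, p = 0.33), and without activin replicate 2 the difference moved from -7.13 to -3.00. Percentiles in lists of unequal length do not measure a change at a site. Class II showed the widest spread between libraries, with medians of 52.6, 61.5, 46.7 and 33.1, against 47.3, 59.6, 48.1 and 44.3 in class I and 49.7, 54.5, 39.5 and 49.7 in class III.

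A few MHC sites were among the strongest of the genome. Over the genome, 108 of 5829 common sites ranked within the best 200 of every list, and in the MHC 4 of 54 did. This rank limit was not planned beforehand, and it takes a larger part of a shorter list. The best of these 4 MHC sites lay in class III from 31795536 to 31795575. Its ranks were 30, 24.5, 25 and 28 in the order used above (ties take their mean rank). Its score was 270, 87.1, 504 and 265 in that order. The next lay in class II from 32940026 to 32940064, with ranks of 27, 41, 42 and 33. It was followed by a class II site from 33239888 to 33239911, with ranks of 150, 128, 86 and 56, and by the best class I site, from 30584982 to 30584989, with ranks of 172, 119.5, 109.5 and 60. Raw ranks in lists of unequal length show no change, which is read below only from ranks over a shared set of sites.

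Below these sites the ranks dropped quickly. In class III the second site, from 31802725 to 31802777, ranked 777.5 and 450.5 in the activin libraries and 171.5 and 101 in the palbociclib libraries. The next in class III were a site from 31509722 to 31509745 (mean rank over the 4 lists 1296), one from 31830533 to 31830565 (1731) and one from 31671040 to 31671049 (1739). In class I the second site lay from 30028987 to 30029051, with ranks of 766 and 1563 with activin and 1049.5 and 616.5 with palbociclib. The class I sites from 30688162 to 30688195, 30312980 to 30313130 and 30539125 to 30539254 followed, with mean ranks from 2038 to 2474. In class II the next sites lay from 33267291 to 33267301, 32862580 to 32862590 and 33245153 to 33245176, with mean ranks of 1072, 2222 and 2439.

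Sites gathered in runs. When sites at most 5000 bp apart were chained, the 280 MHC sites formed 89 runs, of which 36 were a lone site. Runs of at least 2 sites numbered 53 of 89 (59.6%), against 8172 of 15079 (54.2%) over the genome. At 10 or more sites there were 6 (6.74%), against 408 (2.71%). Runs of at least 12 sites numbered 2 (2.25%), against 244 (1.62%), and those of at least 15 numbered 1 (1.12%), against 125 (0.829%). The run with the most sites was in class III from 31795536 to 31810843, over 15308 bp, and began at the strongest MHC site. It held 15 sites, 5 of them in all 4 libraries, with 11, 7, 11 and 10 summits in activin replicates 1 and 2 and palbociclib replicates 1 and 2. The next was in class III from 32134295 to 32146703 with 12 sites, of which 1 was in all 4 libraries. The median gap between neighbouring sites was 1386 bp in the MHC and 1617 bp over the genome.

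Of the 280 MHC sites, 54 were found in all 4 libraries, or 19.3% (Wilson 95% interval 15.1 to 24.3), against 15.9% of all sites. Another 59 (21.1%) were in the 3 libraries other than activin replicate 2, against 22.5%, and 28 (10.0%) were in the replicate 1 libraries alone, against 12.7%. Sites of 1 library numbered 116 (41.4%), against 39.7%. By class, 20 of 109 class I sites, 21 of 104 class III sites and 13 of 67 class II sites were in all 4 libraries. These shares of 18.3%, 20.2% and 19.4% were nearly equal. Presence in a single library was closest to that of all sites in 2 of the libraries: activin replicate 1 held 69.6% of the MHC sites (all sites 69.3%) and palbociclib replicate 2 held 52.9% (52.2%). Palbociclib replicate 1 held 69.3%, and its interval (63.7 to 74.4) just included the 74.3% of all sites. Only activin replicate 2 lay outside, with 27.5% (22.6 to 33.0) against 19.7%. These intervals treat sites as independent, although sites gathered in runs.

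**Figure D3:**
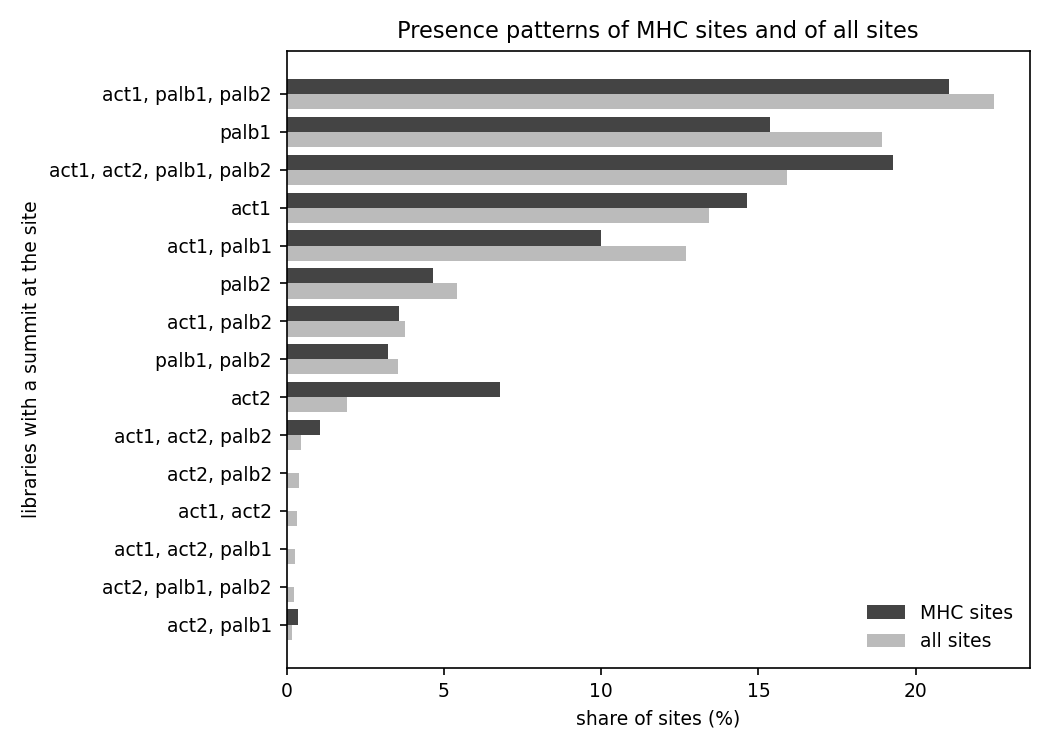
Share of sites in percent (horizontal axis) for each combination of libraries with a summit (vertical axis; act1 and act2 are the activin replicates, palb1 and palb2 the palbociclib replicates). Dark bars are the 280 MHC sites and light bars all 36648 sites, and the bars differ most in ratio, among combinations with 10 or more MHC sites, for activin replicate 2 alone, with 6.79% against 1.93%.

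Palbociclib-only sites, with a summit in each palbociclib library and none with activin, numbered 9, or 3.21% of the MHC sites, against 3.56% of all sites. Without activin replicate 2 there were again 9, of 261 MHC sites, and the share over all sites was not computed for that setting. When activin replicate 1 was left out there were 64 of 245 MHC sites, or 26.1%, against 29.7% of all sites. Leaving out palbociclib replicate 1 gave 22 of 238 (9.24%, all sites 11.5%), and leaving out palbociclib replicate 2 gave 54 of 269 (20.1%, all sites 24.1%). Where both shares were computed, the MHC share was the lower, but its Wilson interval included the share over all sites each time. These settings reuse the same libraries. The first lay in class II from 32821762 to 32821776, with scores of 33.6 and 14.0 in replicates 1 and 2 and an activin summit 328 bp away. The others had scores from 2.74 to 14.9 in replicate 1 and from 3.56 to 7.75 in replicate 2. In class III they lay from 31806956 to 31807125, 32135799 to 32135890, 31683133 to 31683154, 31604945 to 31605067 and 31529936 to 31530004. In class I they lay from 30462192 to 30462398, 31127020 to 31127136 and 30621556 to 30621613. An activin summit lay within 2000 bp of 6 of the 9, and the most distant was 14503 bp away. The same share over all palbociclib-only sites was not computed. No MHC site was in both activin libraries alone, which allows a share of up to 1.07% (3 of 280), and over the genome this share was 0.344%, below that limit. Activin-only sites numbered 41 of 261 without activin replicate 2 (15.7%, all sites 14.1%) and 3 of 269 without palbociclib replicate 2 (1.12%, all sites 0.854%). Without activin replicate 1, where only activin replicate 2 stands for the treatment, there were 20 of 245 (8.16%, all sites 2.66%). With lists of equal length, 1 of 95 MHC sites was palbociclib-only and 3 were activin-only. Shares over all sites were not computed for these calls at that setting.

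Activin replicate 2 had a larger share of its summits in the MHC than the other 3 libraries had of theirs. Sites in this library alone were also a larger share of the MHC sites than of all sites. The MHC held 1.06% of the summits of activin replicate 2, which was 1.41 times the mean of the other 3 libraries, 0.752%. In 47 other stretches of the same length that held at least 300 summits in all, this ratio ran from 0.429 to 1.30 with a median of 0.904. With all lists at 7241 summits the MHC held 0.842% and 1.06% of the activin lists and 0.787% and 0.815% of the palbociclib lists, replicate 1 first, so activin replicate 2 was still the highest. This comparison was chosen after the values were seen.

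There were 19 MHC sites in activin replicate 2 alone, or 6.79% (4.39 to 10.4), against 1.93% of all sites. Of these, 8 were in class I, 4 in class III and 7 in class II. Most were weak, with a median score of 5.17 and a median percentile of 79.6 in that list. The median distance of the 19 to a summit of another library was 498 bp, and 17 lay within 2000 bp. Over all sites of this kind that share was not computed. Sites are close in any case, as 56.6% of gaps between neighbouring MHC sites and 52.5% over the genome were within 2000 bp. Of the 19, 4 stood in 1 class II run from 32935375 to 32942479, at 32937207, 32937970, 32938424 and 32939352. That run also held the strong class II site from 32940026. Another 4 stood in the class I run from 30576970 to 30585644, at 30580216, 30581836, 30583800 and 30585644, next to the strongest class I site. The best 2 of the 19 were in that run, with scores of 19.3 at 30585644 and 13.7 at 30583800. Where summits within 500 bp were joined, 8 of 228 sites were of this kind (3.51%, all sites 1.16%), and at a score of at least 5 there were 10 of 203 (4.93%, all sites 1.52%). With all lists at the same length there were 22 of 95 MHC sites (23.2%), against 11.9% of all sites.

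For the 54 sites in all 4 libraries, ranks can be compared between libraries over the same set of sites. Each site was given its percentile among the 5829 common sites of the genome, from 0 for the strongest to 100 for the weakest. At 13 of the 54 sites (24.1%) each palbociclib library placed the site higher than either activin library did, against 26.2% of all common sites. At 14 (25.9%) each placed it lower, against 28.2%. At the other 27 sites the groups overlapped. The MHC shares were close to those of the genome in both directions, and the median change over the 54 sites was 0.89 percentile points, against 0.57 over all common sites. Without activin replicate 2, with both palbociclib libraries set against activin replicate 1 alone, 43 of 113 common MHC sites ranked higher (38.1%, all common sites 36.9%) and 37 lower (32.7%, all common sites 38.1%).

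The counts by class are given next, and the difference between classes was not tested. In class III, 3 of 21 sites ranked higher with palbociclib and 8 lower, with a median change of 7.10 points towards weaker ranks. In class II, 5 of 13 ranked higher and 1 lower, with a median change of -3.84 points. In class I, 5 of 20 ranked higher and 5 lower, with a median change of -0.10. The Wilson intervals of these shares are wide: 20.8% to 59.1% for the class III sites that ranked lower and 17.7% to 64.5% for the class II sites that ranked higher, and both include the shares over the genome. Without activin replicate 2, class III had 15 of 42 sites ranked higher and 16 lower, and class II had 10 of 23 higher and 8 lower. Class I had 18 of 48 higher and 13 lower. The counts in class III and class II were thus more even without that library. Leaving it out also widened the set of common sites and left 1 activin list, so what set the uneven counts was not tested.

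**Figure D4:**
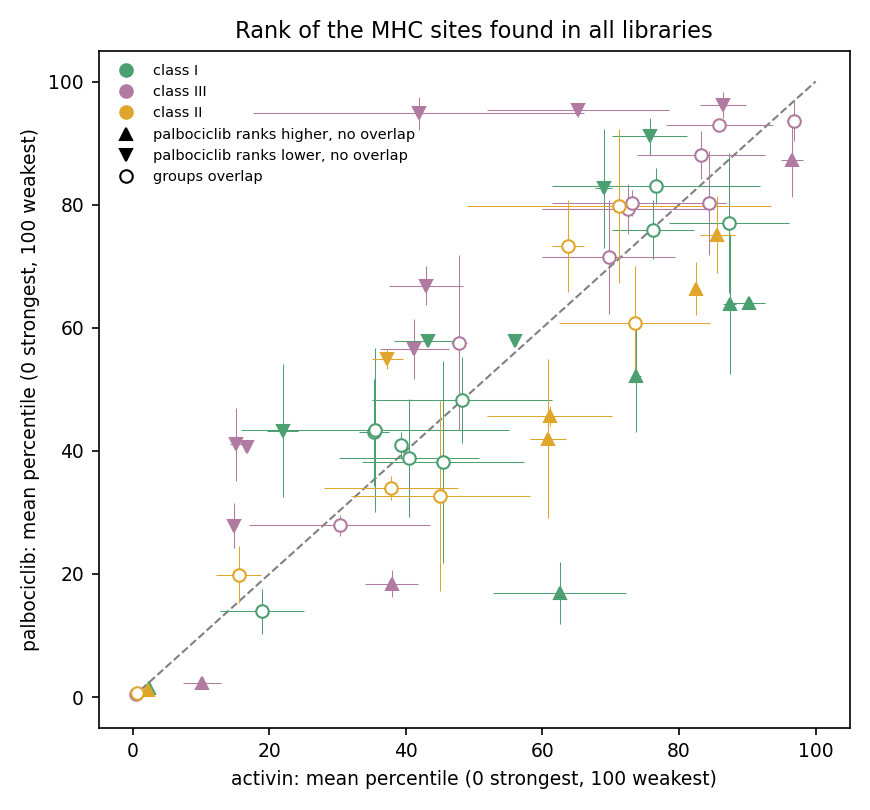
Mean percentile with palbociclib (vertical axis) against mean percentile with activin (horizontal axis) for the 54 MHC sites in all 4 libraries, ranked among 5829 common sites. Points are coloured by class, thin lines join the 2 replicates of each group, filled triangles mark the 13 and 14 sites without overlap between groups, and 8 class III triangles lie above the dashed line of equal rank, with 3 below it.

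The largest gain with palbociclib was at a class I site from 30712296 to 30712319. Its percentile was 52.8 and 72.2 in the activin replicates and 11.9 and 22.0 in the palbociclib replicates, or 62.5 ± 13.7 against 16.9 ± 7.10 (SD, n = 2 each). The gap between the groups was larger than either spread. The other leading gains were also in class I. The site from 31371291 to 31371421 moved from 90.2 ± 3.46 to 64.0 ± 0.655, and the site from 31239841 to 31239913 from 87.4 ± 1.35 to 63.9 ± 16. The largest loss was at a class III site from 31763328 to 31763384, at 66.1 and 17.6 with activin and 97.5 and 92.1 with palbociclib. Its activin replicates differed by nearly as much as the groups. The class III site from 31800767 to 31800862 moved from 65.2 ± 18.8 to 95.3 ± 1.47. The class III site from 31671040 to 31671049, one of the strongest of its class, moved from 15.2 ± 1.32 to 41.0 ± 8.29. These sites were picked for the size of their change and were not tested.

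Neighbouring sites in the main class III run moved in opposite directions. At the site from 31802725 the percentile was 13 and 7.40 with activin and 2.86 and 1.68 with palbociclib, a stronger rank. At the neighbouring common site from 31800767 the palbociclib ranks were weaker, at 94.3 and 96.4 against 78.5 and 51.9. The site from 31799585 to 31799687 also ranked lower, at 94.1 and 98.3 against 89.8 and 83. The strongest site of the run, from 31795536, ranked between 24.5 and 30 in every list. Of the 4 strongest MHC sites, those from 33239888 (2.47 and 2.08 with activin, 1.42 and 0.944 with palbociclib) and from 30584982 (2.85 and 1.93, then 1.83 and 1.00) ranked higher with palbociclib by under 2 percentile points, and at the other two the groups overlapped.

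Libraries shared MHC sites to about the same extent as sites of the genome. Of the sites in either library, the palbociclib replicates shared 55.5% in the MHC (50.0% over the genome) and the activin replicates 26.5% (23.6%). Across treatments, activin replicate 1 and palbociclib replicate 1 shared 56.9% (55.7%), while activin replicate 2 and palbociclib replicate 2 shared 33.9% (30.9%). Short lists cap this measure. Across the 54 common sites, Spearman's rho between the scores was 0.877 for the palbociclib replicates, 0.816 for the activin replicates and 0.865 for the replicate 1 libraries of both treatments. The lowest value was 0.640, for activin replicate 2 with palbociclib replicate 1. These values run across sites, which share each library's depth and, within a treatment, its input.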

How the data were processed

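The submitters' processing notes name hg19, Bowtie 1.1.0, Picard and MACS2 2.0.9, without their order or settings. Inputs served the authors' peak calling only. The deposited score of each summit is on a −log10 scale. Its lowest values were 1.31 to 1.40, just above 1.30, the −log10 of 0.05, and the sources used here leave unsaid if this is a p or a q. It was used only for ranks and filters. Members and lists were chosen with earlier results of these data known. Named sites are the best 5 common sites per class by mean rank, every palbociclib-only site, the 3 largest gains and losses, and the densest and emptiest stretches. The stretches' limits, the leading sites' neighbours and the sites in activin replicate 2 alone were chosen after their values were seen, as were the shares over all sites without a library or under another setting. Site joining was tested only on simulated sites far from each other, so that check does not cover closely spaced sites such as those in the MHC runs. With no hg19 annotation used here, gene lists, nearest genes and sequences were not analysed here. Tiles that touch the MHC were left out. Computations ran in Python 3.11.15 with pandas 2.3.3, numpy 2.4.6, matplotlib 3.10.9 and scipy 1.17.1.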

Additional observations from a re-analysis of the deposited data

How the results depend on the processing

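Alternatives were a score of at least 5, lists of equal length, limits of 29.6 and 33.1 Mb, joining within 100 or 500 bp, ranks within whole lists, the replicate number as a block, and leaving out each library. Of the recomputed values, 90 kept their direction and, for counts, stayed within 1.5 times, while 21 were classed as moved and 5 reversed direction. For tested differences only the sign was judged, whatever the change in size. The 90 include the values with the replicate block, which could not change. The class III share difference turned to 2.75 points at a score of at least 5, was -4.38 with lists of equal length, and ran from -0.947 to 0.760 without 1 library, above 0 without activin replicate 1 or palbociclib replicate 1. The class II to class I density turned to -1.45 with the narrower limits, because the dense last 0.3 Mb was left out, was 0.289 with lists of equal length, and ran from -0.0269 (without activin replicate 2) to 0.134 without 1 library. With equal lists there were 95 sites, 1 palbociclib-only and 3 activin-only, from fewer summits. Shares over all sites were not computed for these calls at that setting or at a score of at least 5. At a score of at least 5, 5 palbociclib-only sites and 10 of activin replicate 2 alone were left, and joining within 500 bp left 8 of the latter. The class I share difference fell to 2.02 at a score of at least 5. The narrower limits left 8 of 44 common sites ranked higher with palbociclib and 13 lower. Over all common sites, which these limits do not change, the shares were 26.2% and 28.2%. Ranks within whole lists gave 16 of 54 common sites ranked higher and 1 lower, and shares over all common sites were not computed for such ranks. In whole lists the common MHC sites have a median percentile of 47.9 in activin replicate 2 and of 13.3 to 18.9 in the other 3 lists. Without 1 library, fewer lists decide a call. Common sites ran from 54 to 113, palbociclib-only from 9 to 64 and activin-only from 0 to 41. Sites ranked higher ran from 17 to 43 and sites ranked lower from 17 to 37, out of 54 to 113 common sites. Of the settings without a library, only that without activin replicate 2 had these ranked shares computed over all common sites. The highest numbers of common, activin-only and ranked sites came without activin replicate 2, and the highest palbociclib-only number without activin replicate 1. With the replicate block, the share difference was again -0.175 points (exact permutation test, p = 0.50, the smallest for 2 pairs) and the other 4 tested differences are also the same by construction. The labels give only equal numbers, and replicate deviations at common sites correlated across treatments (r = 0.264). The number of libraries limits every comparison between groups, and unknown read depth limits every absence.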

Other observations

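Summit positions at the 54 common MHC sites spread over a median of 56 bp from the first to the last summit, with 79 bp in class I, 55 bp in class III and 39 bp in class II, and over 47 bp at all common sites. Sites of 1 library were weak in each list: in activin replicate 1 the 41 sites found there alone had a median percentile of 85.4, against 13.8 for common sites, and in palbociclib replicate 1 the 43 found there alone had 83.2, against 13.3. Of 39 stretches of 100 kb, 9 had no summit in any library, of which 6 were in class II, 2 in class I and 1 in class III. The richest 5 stretches of each library held 41.6% and 48.1% of the MHC summits with activin and 38.5% and 40.5% with palbociclib.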
